A study of Mus musculus with 24 samples.

Results

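The genes for the subunits of the oxidative phosphorylation complexes were examined in NIH 3T3 cells, an established line of mouse fibroblasts. Members were all genes whose mouse symbol names a subunit of complex I to V (the symbols that begin with mt-Nd, mt-Co, mt-Atp or mt-Cytb, Nduf with a subunit letter and number, Sdh, Uqcr, Cox4 to Cox8 and Atp5) and an average of 5 or more counts per library. Of 39017 gene identifiers in the files, 107 had such a symbol and 91 were kept, of which 78 are encoded in the nucleus and 13 on the mitochondrial chromosome. The nuclear genes comprised 35 for complex I, 4 for complex II, 8 for complex III, 14 for complex IV and 17 for complex V, and the mitochondrial genes 7, 0, 1, 3 and 2. Left out were 6 symbols that mark pseudogenes, 4 genes annotated as processed pseudogenes without such a symbol (3 of them above the count limit), and 6 genes under the limit, namely Cox4i2, Cox6b2, Cox7a1, Cox7b2, Cox8b and Cox8c, none of which passed 5 counts in any library.

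Oxidative phosphorylation couples the oxidation of NADH and succinate to the synthesis of ATP in the inner mitochondrial membrane. Complex I (NADH dehydrogenase) and complex II (succinate dehydrogenase) pass electrons to ubiquinone, complex III passes them to cytochrome c and complex IV to oxygen, and complex V makes ATP from the proton gradient that complexes I, III and IV build. Complexes I, III, IV and V are assembled from subunits of both genomes, whereas every subunit of complex II is nuclear, and the mitochondrial messages are cut from long transcripts of a small circular genome that has its own polymerase.

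The 24 libraries came from 8 groups of 3. Every group was made by retroviral transduction with a pBabeNeo vector and selection, so that the lines are pools of transduced cells and not clones, and the triplicates were transduced separately. EV cells carried the empty vector. The others carried Flag-tagged TAZ4SA or YAP5SA, full-length TAZ or YAP with serines replaced by alanine, the fusion proteins TAZ-CAMTA1 or YAP-TFE3, or full-length CAMTA1 or TFE3. The cells were kept at confluence for 48 h before collection, with the exception of CAMTA1 and of its empty vector control EVsub, which is labelled sub-confluent. Each protein was compared with EV, CAMTA1 with EVsub, EVsub with EV, and each fusion protein with the full-length protein it derives from. The comparisons with EV share the same 3 control libraries, so their values stand side by side below and are not independent of each other.

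Library totals ranged from 16471181 to 30132586 counts. The sum of 11 fibroblast markers lay between 21100 and 57950 CPM (counts scaled to a common library size) in the 24 libraries. Sums of the marker lists are scaled to library totals alone, and all other CPM values also by TMM. The epithelial list (1 of 5 genes above the count limit) summed to 0.322 to 0.601 CPM in EV and 0.0848 to 0.157 in YAP5SA, and no library passed 1.16. The endothelial list (3 of 5) summed to 2.45 to 4.78 CPM in EV, 9.02 to 11.5 in TAZ4SA, 6.18 to 7.56 in YAP5SA and 0.446 to 0.607 in EVsub. The muscle list (1 of 6) summed to 0 to 0.312 CPM in EV, 4.55 to 7.47 in TAZ4SA and 1.94 to 3.69 in YAP5SA. The macrophage list (4 of 6) summed to 6.38 to 7.91 CPM in EV, 20.8 to 66.0 in TAZ4SA and 71.7 to 113 in YAP5SA. The fibroblast list summed to 40710 to 44050 CPM in EV, 21100 to 22570 in TAZ4SA and 24000 to 26270 in YAP5SA. Its sum was also below EV in EVsub (27250 to 38560), CAMTA1 (22530 to 31620) and TFE3 (34430 to 38310). Of its 11 genes, 1 was higher and 5 lower in TAZ4SA (edgeR, adjusted p under 0.05), beside 31.1% and 26.4% of all genes. In YAP5SA 2 were higher and 5 lower, beside 36.3% and 34.9%. Of the 3 endothelial genes tested 2 were higher and 1 lower in both groups. The part of these shifts in the results for TAZ4SA and YAP5SA was not tested. In bulk RNA, fewer cells of a type and less RNA per cell cannot be told apart. Ccn2, a target gene of TAZ and YAP, was measured at 14.6 to 19.9 CPM in EV, 174 to 437 in TAZ4SA and 174 to 426 in YAP5SA. It stood at 37.7 to 143 CPM in EVsub and 159 to 294 in CAMTA1. Counts of the mouse genes did not follow every label, since Tfe3 was at 68.1 to 74.4 CPM in TFE3 against 84.6 to 93.3 in EV and Yap1 at 91.6 to 111 in YAP5SA against 170 to 193 in EV, whereas Camta1 was at 9.23 to 11.2 in CAMTA1 against 3.95 to 5.60 in EVsub and Wwtr1, which encodes TAZ, at 152 to 171 in TAZ4SA against 130 to 137 in EV. Whether reads of the introduced genes count towards the mouse genes was not tested.

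In TAZ4SA and YAP5SA the summed counts of the nuclear members were higher and those of the mitochondrial members lower than in EV. The nuclear members together took 0.743 to 0.774% of all counts in EV, 0.812 to 0.981% in TAZ4SA and 1.04 to 1.05% in YAP5SA, while the mitochondrial members took 3.74 to 4.02% in EV, 2.86 to 3.13% in TAZ4SA and 2.00 to 2.20% in YAP5SA. The ratio of mitochondrial to nuclear counts, which does not depend on how libraries are scaled, was 4.83 to 5.28 in EV, 2.92 to 3.70 in TAZ4SA and 1.93 to 2.11 in YAP5SA. The groups did not overlap in it. The ratio was 5.09 to 6.05 in TAZ-CAMTA1 and 4.18 to 5.63 in YAP-TFE3, both of which overlapped EV, and 5.97 to 7.55 in TFE3. In the sub-confluent groups it was 2.81 to 3.41 in EVsub and 3.64 to 3.99 in CAMTA1.

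**Figure D1:**
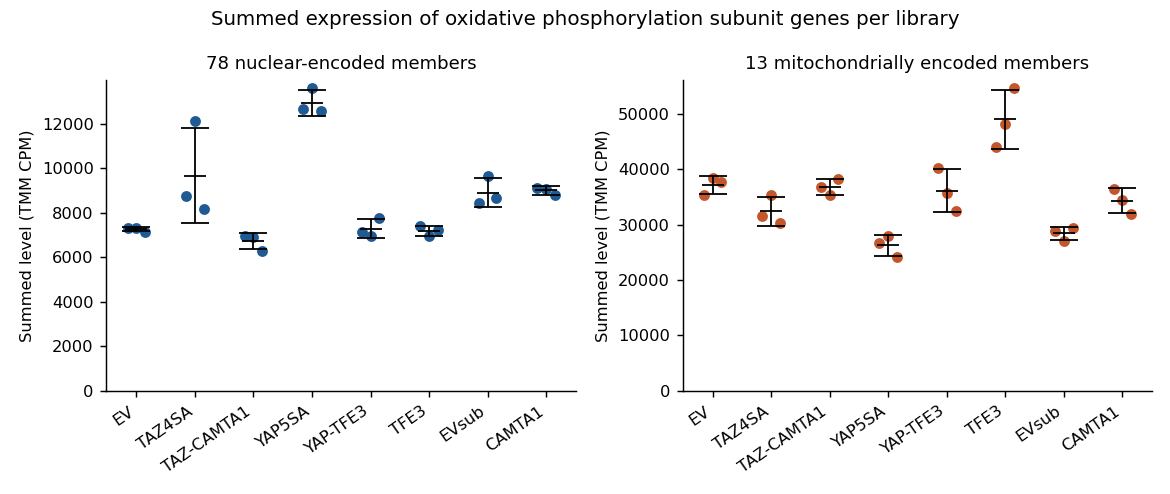
Summed level in TMM-normalised CPM (y axis) of the 78 nuclear-encoded members (left) and the 13 mitochondrially encoded members (right) in each of the 24 libraries, by group; points are libraries and bars the mean and SD of 3. YAP5SA had the highest nuclear sums (12547 to 13607) with mitochondrial sums of 24201 to 27895, and TFE3 the highest mitochondrial sums (44074 to 54612).

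The library of TAZ4SA replicate 2 stood apart. Its nuclear members summed to 12112 CPM, against 8162 and 8738 in the other TAZ4SA libraries and 7148 to 7322 in EV. It also had the fewest counts of all libraries (16471181). Counts of TAZ4SA members are given with and without it below.

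Among the mitochondrial genes, 8 of 13 were lower and 1 higher in TAZ4SA than in EV (edgeR, adjusted p under 0.05), with a median log2 fold change of -0.77. Over all 14361 genes tested the share called was 26.4% lower and 31.1% higher, with a median of 0.05. In YAP5SA 11 of 13 were lower and 1 higher with a median of -1.36, against 34.9% lower and 36.3% higher over all genes and a median of 0.01. The mitochondrial genes did not all carry the same weight of evidence, because several have near-identical nuclear copies. Of the windows of 75 bases (the read length) in mt-Co3, mt-Atp6, mt-Co2, mt-Nd4l and mt-Nd3, 97.8 to 99.9% also occurred in another gene (for mt-Nd4l in Gm10222, an unprocessed pseudogene on chromosome 1), and so did 61.5% of those in mt-Nd4 and 39.8% of those in mt-Co1. Reads from these genes may have been split or dropped in counting, and their levels are uncertain. The share was under 10% in the other 6, mt-Nd1, mt-Nd2, mt-Nd5, mt-Nd6, mt-Cytb and mt-Atp8. However, mt-Atp8 overlaps mt-Atp6 on the chromosome, and mt-Nd6 overlaps the end of mt-Nd5 on the other strand. Of the 6 genes with under 10%, 5 were lower in TAZ4SA and all 6 in YAP5SA, with medians of -0.80 and -1.77.

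mt-Nd6, a membrane subunit of complex I and the message that lies on the other strand from the rest, had the largest fall of the mitochondrial genes in YAP5SA. It was measured at 1060, 1213 and 1142 CPM in the EV libraries, at 400, 539 and 518 CPM in TAZ4SA and at 275, 288 and 239 CPM in YAP5SA. The 3 groups did not overlap. The log2 fold changes were -1.23 ± 0.13 (SE, adjusted p = 1.24e-07, edgeR) for TAZ4SA and -2.09 ± 0.14 (adjusted p = 2.71e-11) for YAP5SA. mt-Nd5, a proton-pumping subunit of the same complex, stood at 4092, 4730 and 4256 CPM in EV, 1572, 2026 and 2105 in TAZ4SA and 1171, 1224 and 1046 in YAP5SA. Its log2 fold changes were -1.20 ± 0.15 (adjusted p = 5.59e-07) and -1.93 ± 0.15 (adjusted p = 2.54e-10). mt-Nd5 ends at base 13565 of the chromosome, and mt-Nd6 spans bases 13552 to 14070 on the other strand. The strand setting of the counts is not known, so reads of mt-Nd5 may have been counted for mt-Nd6. The falls of mt-Nd5 and mt-Nd6 may therefore not be separate results, which was not tested. mt-Nd1, which helps to form the ubiquinone channel, was at 3968, 4694 and 4355 CPM in EV, 2755, 1834 and 3046 in TAZ4SA and 1975, 1704 and 1553 in YAP5SA. It fell by 0.77 ± 0.17 on the log2 scale in TAZ4SA and by 1.31 ± 0.17 in YAP5SA. mt-Nd2, another membrane subunit, fell by 0.82 and 1.15. mt-Cytb, the cytochrome b of complex III, was at 6200, 7219 and 7095 CPM in EV, 3949, 3097 and 4973 in TAZ4SA and 2517, 2339 and 1816 in YAP5SA. It fell by 0.77 ± 0.18 and 1.62 ± 0.18, again without overlap between the groups.

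mt-Co1, the catalytic subunit of complex IV that holds the site of oxygen reduction, went the other way. It was the mitochondrial member with the highest counted level per kilobase in EV (8744 CPM per kb, against 5977 for mt-Cytb and 4534 for mt-Nd1). However, 39.8% of its own windows are shared with other genes, and the levels of all members with many shared windows are uncertain. mt-Co1 was measured at 13601, 12925 and 14000 CPM in EV, at 19264, 23928 and 15244 CPM in TAZ4SA and at 17223, 19259 and 16799 CPM in YAP5SA. All 6 libraries of the full-length proteins lay above the 3 EV libraries. The log2 fold change was 0.53 ± 0.15 in TAZ4SA (adjusted p = 0.00468, edgeR) and 0.39 ± 0.15 in YAP5SA (adjusted p = 0.0228). With library totals alone as the scale, a setting added after seeing the data that moved the median of all genes in YAP5SA against EV from 0.01 to -0.36, the fold change of mt-Co1 in YAP5SA was 0.02 and was not called. The call was also lost with a filter of at least 10 counts in every library and without EV replicate 2 or YAP5SA replicate 2, and that in TAZ4SA in a fit of the 2 groups alone. As a share of all counts on the 13 mitochondrial genes, which does not depend on the scale, mt-Co1 made up 36.4 ± 2.5% in EV (SD, n = 3), 59.7 ± 8.7% in TAZ4SA and 67.7 ± 2.7% in YAP5SA, with no overlap between EV and the others. mt-Cytb made up 18.4 ± 0.74%, 12.6 ± 3.8% and 8.44 ± 0.97%. The other catalytic-core subunits of complex IV did not rise with mt-Co1 in the same data. mt-Co2, which takes electrons from cytochrome c, had log2 fold changes of -0.09 in TAZ4SA and -0.38 in YAP5SA that missed the threshold, and mt-Co3 was lower in YAP5SA (-1.35); nearly all windows of both are shared with nuclear copies.

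**Figure D2:**
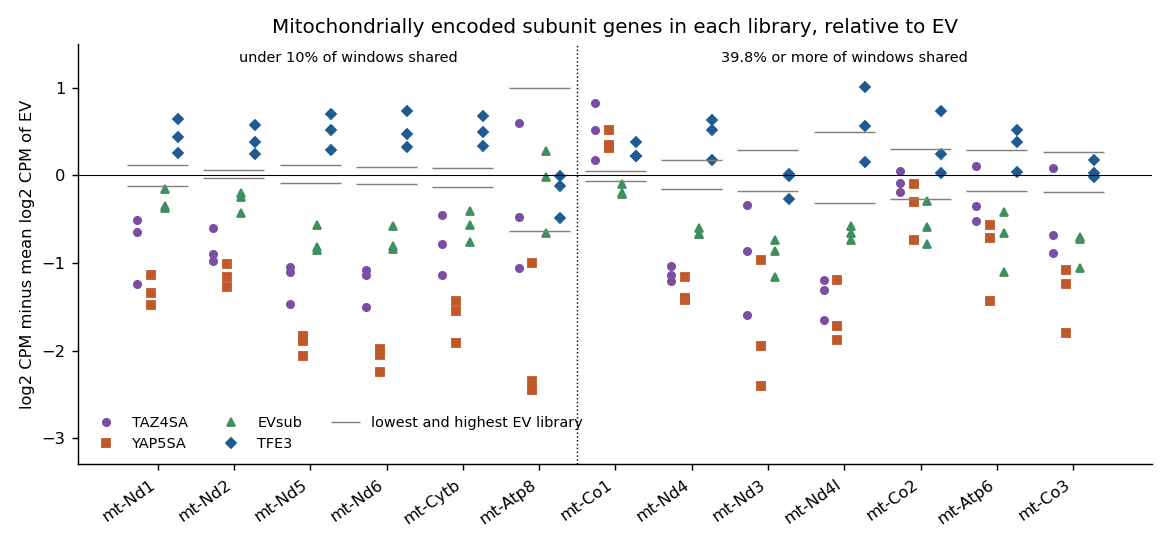
Level of the 13 mitochondrially encoded genes in each library of TAZ4SA, YAP5SA, EVsub and TFE3, as log2 CPM minus the mean log2 CPM of EV (y axis); grey lines mark the lowest and highest EV library, and the dotted line parts the 6 genes with under 10% of 75-base windows shared with other genes from the 7 with 39.8% or more. mt-Co1 lies above the EV range in every TAZ4SA and YAP5SA library, whereas mt-Nd1, mt-Nd2, mt-Nd5, mt-Nd6 and mt-Cytb lie below it in each of them.

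The nuclear members were higher in YAP5SA for the most part. Of 78, 53 were higher than in EV and 9 lower, beside the 36.3% and 34.9% of all genes tested, and the median log2 fold change was 0.56. In TAZ4SA 32 were higher and 9 lower, beside 31.1% and 26.4%, with a median of 0.26. Without TAZ4SA replicate 2 these counts were 18 higher (23.1%) and 13 lower (16.7%) with a median of 0.11, beside 28.5% and 24.2% of all genes in the same fit, so that the share of rises was then no larger than the background. The mitochondrial counts without it were 9 lower and 1 higher. With library totals alone the counts were 35 higher and 18 lower in YAP5SA, when 3565 of all genes were higher and 6775 lower, and 20 higher and 17 lower in TAZ4SA, when 3424 of all genes were higher and 4747 lower. The median of the nuclear members in YAP5SA was then 0.19, above a median of all genes of -0.36.

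**Figure D3:**
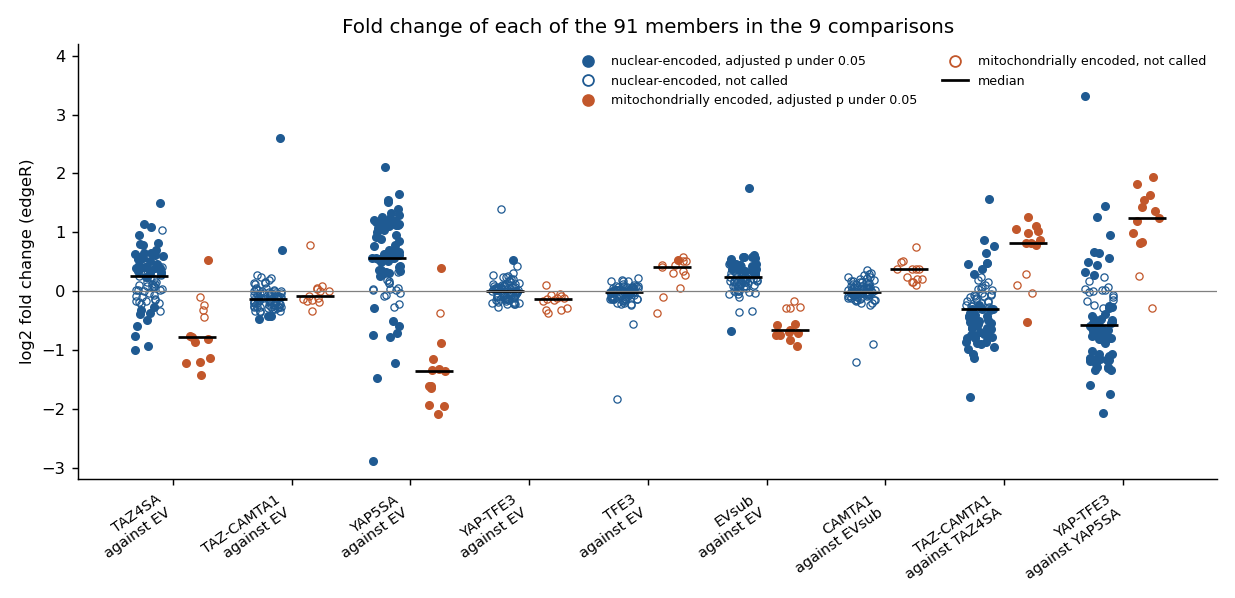
Log2 fold change (y axis, edgeR) of each of the 91 members in the 9 comparisons (x axis), nuclear-encoded in blue and mitochondrially encoded in orange; filled points have an adjusted p under 0.05 and black lines are medians. The medians of the nuclear and mitochondrial members lie at 0.56 and -1.36 in YAP5SA against EV and at -0.58 and 1.24 in YAP-TFE3 against YAP5SA.

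In complex I, 22 of 35 nuclear members were higher (62.9%) and 5 lower (14.3%) in YAP5SA, beside 36.3% and 34.9% of all genes. In TAZ4SA 13 were higher (37.1%, near the background of 31.1%) and 4 lower (11.4%, beside 26.4%). Without TAZ4SA replicate 2 these were 5 and 5 (14.3% each), beside 28.5% and 24.2%. Ndufv1, the core subunit that binds NADH, was at 104, 98.2 and 99.2 CPM in EV, 116, 177 and 109 in TAZ4SA and 234, 225 and 238 in YAP5SA. It rose by 1.21 ± 0.14 in YAP5SA (adjusted p = 1.55e-07, edgeR) and by 0.41 ± 0.14 in TAZ4SA (adjusted p = 0.017), and the TAZ4SA call was lost without replicate 2. Ndufs1, the largest core subunit of the same arm, was called in none of the 9 comparisons (90.7, 77.7 and 98.8 CPM in TAZ4SA, 108, 101 and 102 in YAP5SA and 91.4, 101 and 89.8 in EV). Ndufb6, an accessory subunit of the membrane arm, rose by 1.51 ± 0.14 in YAP5SA from 16.1, 23.3 and 18.1 CPM to 56.2, 55.9 and 51.3 CPM; 27.8% of its windows lie in the overlapping Smim27, which had at most 1.06 CPM in EV.

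A small set of complex I accessory subunits fell. Ndufa5, in the arm that reaches into the matrix, was at 30.8, 29.3 and 33.0 CPM in EV, 19.6, 14.6 and 20.4 in TAZ4SA and 9.70, 14.0 and 9.88 in YAP5SA. The groups were apart from each other, with log2 fold changes of -0.76 ± 0.14 (adjusted p = 8.86e-05, edgeR) and -1.47 ± 0.14 (adjusted p = 8.85e-09). Ndufb7, in the membrane arm, was at 34.6, 34.0 and 33.1 CPM in EV, 12.5, 17.4 and 20.8 in TAZ4SA and 16.1, 13.5 and 14.1 in YAP5SA. It fell by 1.00 ± 0.16 and 1.22 ± 0.16, and here the libraries of TAZ4SA and YAP5SA overlapped. Ndufb2, of the same arm and a low-level member (6.45 to 7.26 CPM in EV), fell by 0.94 and 0.71. Ndufc2 fell by 0.74 in YAP5SA, with a fold change of -0.04 in TAZ4SA that missed the threshold. Lower levels were not confined to accessory subunits. The core subunit Ndufv2 was at 67.1, 70.7 and 76.6 CPM in EV and 57.0, 64.6 and 54.7 in YAP5SA, without overlap.

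In complex II, which also serves the tricarboxylic acid cycle, all 4 members were higher in YAP5SA, beside 36.3% of all genes. Sdhb, the iron-sulfur subunit, was at 69.0, 65.7 and 65.9 CPM in EV, 87.3, 115 and 84.0 in TAZ4SA and 164, 157 and 169 in YAP5SA. The groups did not overlap, and the log2 fold changes were 0.51 ± 0.10 (adjusted p = 0.000251, edgeR) and 1.29 ± 0.11 (adjusted p = 5.42e-10). Sdha, the flavoprotein, rose by 0.56 in YAP5SA, and the membrane anchors Sdhc and Sdhd by 0.56 and 0.43. The calls of Sdhc and Sdhd in YAP5SA were lost with library totals alone, at fold changes of 0.19 and 0.05. In TAZ4SA Sdhb alone of the 4 was called, with fold changes of 0.21, 0.03 and 0.07 for Sdha, Sdhc and Sdhd. Without TAZ4SA replicate 2 Sdhb was still higher and Sdhc was called lower (-0.23).

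In complex III, 6 of 8 nuclear members were higher (75%) and 1 lower (12.5%) in YAP5SA, beside 36.3% and 34.9% of all genes. In TAZ4SA 3 were higher (37.5%, near the background of 31.1%), or 1 without TAZ4SA replicate 2 (12.5%, beside 28.5%). Uqcrfs1, the Rieske iron-sulfur protein, was at 44.6, 54.4 and 45.5 CPM in EV, 82.6, 101 and 69.8 in TAZ4SA and 116, 118 and 108 in YAP5SA, and it rose by 0.81 ± 0.12 and 1.24 ± 0.12 on the log2 scale. The core subunits parted. Uqcrc1 rose by 1.12 ± 0.12 in YAP5SA (271, 225 and 264 CPM, from 117, 115 and 119), whereas Uqcrc2 had a fold change of 0.14 ± 0.10 (99.5, 123 and 113 CPM, from 105, 102 and 97.5) that missed the threshold. Uqcrb, which lies at the ubiquinone site, was the member that fell, at 44.5, 49.6 and 45.8 CPM in EV and 25.3, 29.2 and 27.2 in YAP5SA (-0.78 ± 0.13, adjusted p = 1.01e-05, edgeR).

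In complex IV, 10 of 14 nuclear members were higher (71.4%) and 2 lower (14.3%) in YAP5SA, beside 36.3% and 34.9% of all genes. In TAZ4SA 8 were higher (57.1%) and 2 lower (14.3%), beside 31.1% and 26.4%. Without TAZ4SA replicate 2 these were 7 (50%) and 3 (21.4%), beside 28.5% and 24.2%. Cox5a, a subunit on the matrix side, was the member called in most comparisons with EV. It was at 26.3, 34.9 and 27.5 CPM in EV, 44.8, 72.1 and 55.1 in TAZ4SA, 56.1, 45.0 and 42.5 in TAZ-CAMTA1, 103, 90.7 and 83.9 in YAP5SA, 47.0, 40.0 and 41.6 in YAP-TFE3 and 41.4, 53.4 and 37.5 in EVsub. Each of these 15 libraries lay above the 3 EV libraries. Its log2 fold changes were 0.95 ± 0.16 in TAZ4SA, 0.70 ± 0.16 in TAZ-CAMTA1, 1.65 ± 0.17 in YAP5SA, 0.54 ± 0.16 in YAP-TFE3 and 0.58 ± 0.16 in EVsub, with adjusted p of 4.16e-05, 0.00361, 1.26e-08, 0.0273 and 0.0137 (edgeR). The call in YAP-TFE3 was lost without EV replicate 1, EV replicate 3 or YAP-TFE3 replicate 1, and that in EVsub without EV replicate 1, EV replicate 3 or EVsub replicate 2 and in a fit of the 2 groups alone. Cox5b, which binds zinc, had a fold change of -0.22 in TAZ4SA that missed the threshold and rose by 0.51 in YAP5SA.

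Cox7a2l, which joins complexes III and IV into supercomplexes, had the largest rise of the nuclear members in TAZ4SA. It was at 185, 156 and 179 CPM in EV, 494, 676 and 291 in TAZ4SA and 415, 626 and 480 in YAP5SA. No library of either group reached down to EV, and the log2 fold changes were 1.49 ± 0.20 (adjusted p = 1.98e-06, edgeR) and 1.55 ± 0.20 (adjusted p = 5.07e-07). Its paralogue Cox7a2, a subunit of the enzyme itself, rose less, by 0.39 ± 0.10 and 0.66 ± 0.10. Cox7b fell by 0.59 in both groups, from 77.5, 80.7 and 80.2 CPM in EV to 62.2, 40.6 and 54.9 in TAZ4SA and 50.1, 62.3 and 46.2 in YAP5SA.

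**Figure D4:**
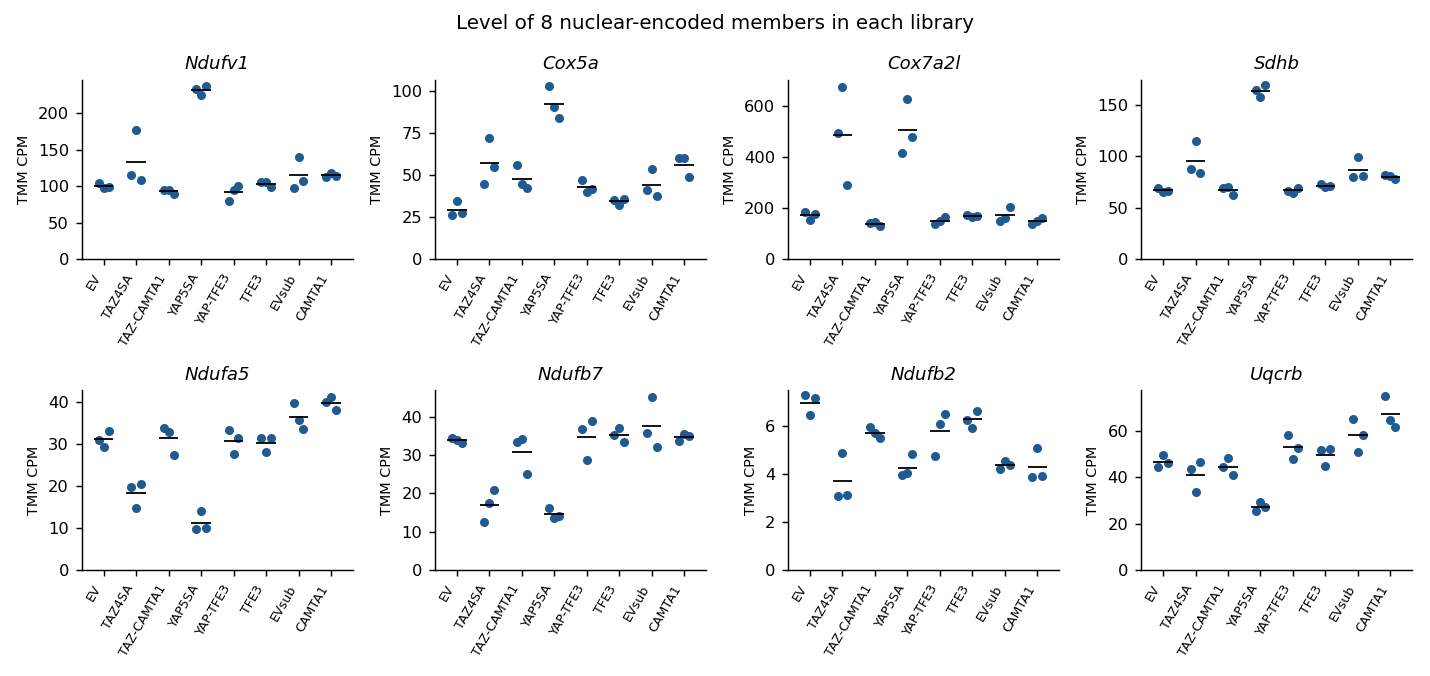
TMM-normalised CPM (y axis, from 0) of 8 nuclear-encoded members in each library, by group; points are libraries and lines are means of 3. Ndufv1, Cox5a, Cox7a2l and Sdhb are higher, and Ndufa5 and Ndufb7 lower, in each TAZ4SA and YAP5SA library than in every EV library.

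Several subunits of complex IV exist in a common form and a tissue-restricted form. The common forms dominated here, with Cox4i1 at 252 CPM, Cox6a1 at 115, Cox6b1 at 75.8, Cox8a at 186 and Ndufa4 at 143 on average in EV, against no more than 5 counts in any library for Cox4i2, Cox6b2, Cox7a1, Cox7b2, Cox8b and Cox8c. Cox6a2, the form of heart and skeletal muscle, was detected at 0.221 to 0.286 CPM in EV and at 1.21, 1.58 and 1.88 CPM in TAZ-CAMTA1, a log2 fold change of 2.60 ± 0.44 (adjusted p = 0.000168, edgeR). It was also higher in EVsub (0.683, 1.18 and 0.719 CPM) and YAP5SA (0.565, 0.785 and 0.570 CPM), calls that were lost without EVsub replicate 2 and without EV replicate 3 or YAP5SA replicate 2, while its levels in TFE3 were 0.0894, 0.0844 and 0.0349 CPM. These values rest on few counts (5 to 6 in each EV library). The summed muscle markers, which unlike Cox6a2 are scaled to library totals alone, were at 0 to 0.312 CPM in EV. They were at 0.764 to 1.92 CPM in TAZ-CAMTA1, 0.464 to 0.792 in EVsub and 1.94 to 3.69 in YAP5SA. Their part in the Cox6a2 values was not tested. Ndufa4l2, the counterpart of Ndufa4 that is induced under low oxygen, was likewise at the limit, with 0.0844, 0.477 and 0.354 CPM in EV and 0.0513, 0.0491 and 0 CPM in YAP5SA.

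In complex V, 11 of 17 nuclear members were higher (64.7%) and 1 lower (5.88%) in YAP5SA, beside 36.3% and 34.9% of all genes. In TAZ4SA 7 were higher (41.2%) and 3 lower (17.65%), beside 31.1% and 26.4%. Without TAZ4SA replicate 2 these were 4 and 4 (23.5% each), beside 28.5% and 24.2%, so neither share was then above the background. Atp5b, the catalytic beta subunit, was at 943, 1046 and 944 CPM in EV, 1174, 1879 and 1443 in TAZ4SA and 2287, 2228 and 2245 in YAP5SA. It rose by 0.62 ± 0.13 and 1.21 ± 0.14, with no overlap between the 3 groups. The central stalk subunits Atp5c1 (gamma) and Atp5d (delta) rose by 1.15 and 1.20 in YAP5SA. Atp5d was at 147, 153 and 153 CPM in EV, 261, 462 and 279 in TAZ4SA and 347, 368 and 323 in YAP5SA. The 3 genes for the same c-ring protein differed, since Atp5g2 rose by 0.67 ± 0.15 in YAP5SA, Atp5g3 by 0.26 ± 0.11 (a call lost under 11 of 14 other settings) and Atp5g1 had a fold change of 0.18 ± 0.13 that missed the threshold. In TAZ4SA Atp5g1 was lower (-0.38 ± 0.14). Atp5j, a subunit of the peripheral stalk, fell by 0.48 and 0.51, and it shares 5.71% of its windows with Gabpa and Gm11966. Gabpa, a transcription factor subunit of the regulator list, fell by 1.61 in YAP5SA.

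In the fusion protein groups few members were called against EV. In TAZ-CAMTA1, 2 of 78 nuclear members were higher and 3 lower, beside 12.5% higher and 8.98% lower over all genes, with a median of -0.13. A fit of these 2 groups alone called 2 higher and 14 lower, beside 16.7% and 13.9% of all genes. Of the 78 fold changes 59 were below 0. Besides Cox5a and Cox6a2, the members called in the fit of all groups were Ndufv3, an accessory subunit of the NADH-binding arm (-0.47 ± 0.15), Uqcrh, the hinge protein of complex III (-0.43 ± 0.15), and Atp5mpl, a small membrane subunit of complex V (-0.42 ± 0.14). Ndufv3 was at 78.5, 71.7 and 80.0 CPM in EV and 59.1, 54.8 and 52.7 in TAZ-CAMTA1. The 3 falls were all lost without EV replicate 1, EV replicate 3, TAZ-CAMTA1 replicate 2 or TAZ-CAMTA1 replicate 3. None of the 13 mitochondrial genes was called (edgeR), and 0 had an unadjusted p under 0.05, beside 4873 of all 14361 genes. DESeq2 also called 0, beside 1838 higher and 1611 lower over all genes. In YAP-TFE3, Cox5a was the 1 nuclear member higher and 0 were lower, beside 10.6% and 4.74% over all genes, with a median of 0.00. None of the mitochondrial genes was called by edgeR, with 1 at an unadjusted p under 0.05, beside 3895 of all 14361 genes. DESeq2 called 1 of them lower, beside 1002 over all genes.

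The fusion proteins were also compared with the full-length proteins directly. Between TAZ-CAMTA1 and TAZ4SA, 42 of 78 nuclear members were lower and 8 higher, beside 28.1% and 26.6% over all genes, with a median of -0.31, and 9 of 13 mitochondrial genes were higher and 1 (mt-Co1, -0.52 ± 0.15) lower. Without TAZ4SA replicate 2 the nuclear counts were 31 lower and 6 higher with a median of -0.16, beside 24.2% and 22.4% over all genes, and the mitochondrial counts were the same. Among the larger falls were those of Cox7a2l (-1.80), Ndufa6, an accessory subunit of complex I (-1.14), and Atp5d (-0.98). Ndufa6 was at 118, 141 and 76.5 CPM in TAZ4SA, 52.8, 49.6 and 49.8 in TAZ-CAMTA1 and 72.6, 65.6 and 66.9 in EV. Between YAP-TFE3 and YAP5SA, 53 nuclear members were lower and 11 higher, beside 34.5% and 36.4% over all genes, with a median of -0.58. Of the mitochondrial genes 11 were higher and 0 lower, with a median of 1.24. Cox7a2l fell by 1.75 on the log2 scale, from 415, 626 and 480 CPM in YAP5SA to 138, 148 and 166 in YAP-TFE3, and Ndufa5 had the largest rise among nuclear members averaging 50 counts or more (1.45), from 9.70, 14.0 and 9.88 CPM to 33.2, 27.5 and 31.5. With library totals alone the nuclear counts were 33 lower and 11 higher for TAZ-CAMTA1, when 2950 of all genes were lower and 4816 higher, and 38 lower and 19 higher for YAP-TFE3, when 3386 were lower and 7066 higher.

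In TFE3 no nuclear member was called in either direction by edgeR or DESeq2, beside 2.36% higher and 1.02% lower over all genes with edgeR. An unadjusted p under 0.05 (edgeR) was reached by 1 of 78, beside 2055 of all 14361 genes. The mitochondrial genes had a median log2 fold change of 0.40, with 11 of 13 above 0. mt-Nd6 was the 1 gene called higher, at 1426, 1582 and 1898 CPM against 1060, 1213 and 1142 in EV (0.52 ± 0.13, adjusted p = 0.0303, edgeR). DESeq2 called 5 mitochondrial genes, beside 463 higher and 248 lower of all 14361 genes. The edgeR call of mt-Nd6 was lost when EV replicate 1, 2 or 3 or TFE3 replicate 2 or 3 was left out. Reads of mt-Nd5 may have been counted for mt-Nd6 here too. mt-Nd5 (5301, 6217 and 7091 CPM) and mt-Cytb (8586, 9646 and 10953 CPM) also lay above every EV library, with adjusted p of 0.0554 and 0.136 (edgeR), as did mt-Nd1, mt-Nd2 and mt-Co1, with adjusted p of 0.171, 0.0939 and 0.438.

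The sub-confluent empty vector cells were compared with the confluent ones. In EVsub, 21 of 78 nuclear members were higher and 1 lower than in EV and 56 were not called, beside 12.5% and 9.59% over all genes, with a median of 0.23, and 9 of 13 mitochondrial genes were lower with a median of -0.65. Cox6b1, on the outer face of complex IV, was at 111, 125 and 113 CPM in EVsub and 81.0, 75.1 and 71.4 in EV (0.62 ± 0.14, adjusted p = 0.00244, edgeR). Cox7a2 rose by 0.59, Ndufb8, an accessory subunit of complex I, by 0.57 and Atp5b by 0.56. Ndufb2 was the member that fell (-0.67 ± 0.17). mt-Nd5 was at 2470, 2412 and 2936 CPM against 4092 to 4730 in EV, and mt-Co1 at 11769, 11645 and 12636 CPM against 12925 to 14000, a change of -0.17 ± 0.15 that missed the threshold. The nuclear count in either direction was 13 without EV replicate 1, 11 without EV replicate 3 and 11 without EVsub replicate 2. The mitochondrial count was 4 without EV replicate 2 or EVsub replicate 2. Calls over all genes were also fewer, at 1159 higher and 962 lower without EV replicate 1, from 1796 and 1377. They were 1092 and 879 without EV replicate 3, 1086 and 1012 without EVsub replicate 2 and 1607 and 1308 without EV replicate 2. CAMTA1 was compared with EVsub. No nuclear or mitochondrial member was called by edgeR, beside 1.29% higher and 0.891% lower over all genes. Of the 78 and 13 members, 5 and 5 had an unadjusted p under 0.05 (edgeR), beside 2612 of all 14361 genes. DESeq2 called 1 nuclear and 2 mitochondrial members, beside 349 higher and 291 lower over all genes. All 13 mitochondrial genes had positive fold changes, from 0.10 to 0.76, with a median of 0.37.

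Genes that work with the complexes but lie outside the symbol rule were followed through 5 lists. The background for YAP5SA against EV was 36.3% of all genes higher and 34.9% lower. In YAP5SA, 12 of 17 genes of the tricarboxylic acid cycle outside complex II were higher and 3 lower, with a median of 0.90; Idh3b, of the isocitrate dehydrogenase, and Mdh2, the malate dehydrogenase, rose by 1.48 and 1.43, and Suclg2, of the succinyl-CoA ligase, fell by 0.96. Of the electron carriers and other subunits 12 of 17 were higher and 3 lower, with a median of 0.65, led by Coq5, an enzyme of ubiquinone synthesis, at 1.20, whereas Ucp2, an uncoupling-family carrier, fell by 2.10. Of the factors that express and maintain the mitochondrial genome 17 of 29 were higher (58.6%) and 10 lower (34.5%, near the background). Mterf4, needed for mitochondrial ribosomes, rose by 1.23, and the RNA-binding factors Fastkd2 and Slirp fell by 1.41 and 1.31. The assembly factors had 15 of 44 higher (34.1%, near the background) and 9 lower (20.5%), with a median of 0.09. Ndufaf6, for complex I, rose by 2.05 and Uqcc3, for complex III, fell by 2.64. Of the transcriptional regulators 3 of 13 were higher (23.1%) and 5 lower (38.5%, near the background). Among them were Esrra, a nuclear receptor that activates respiratory genes (1.32), and Ppargc1a, the coactivator of mitochondrial biogenesis (-2.04). In TAZ4SA the 5 lists, of 17, 17, 29, 44 and 13 genes in the same order, had 11, 8, 10, 12 and 6 higher and 2, 2, 5, 10 and 4 lower, beside 31.1% and 26.4% of all genes. The rises made up 34.5% of the genome expression list and 27.3% of the assembly factors, shares near that background. Without TAZ4SA replicate 2 the rises were 7, 6, 8, 9 and 6, beside 28.5% of all genes.

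In TAZ-CAMTA1, YAP-TFE3, TFE3 and CAMTA1 no list had more than 2 genes called in a direction. Over all genes 12.5% were higher and 8.98% lower in TAZ-CAMTA1, and 10.6% and 4.74% in YAP-TFE3. The shares were far smaller in TFE3 (2.36% and 1.02%) and in CAMTA1 against EVsub (1.29% and 0.891%). Genes of the lists that were called included Ucp2, lower in TAZ-CAMTA1 (-1.16) and YAP-TFE3 (-0.81). Lrpprc, which stabilises mitochondrial messages, was higher in TFE3 (0.53). In EVsub 6, 7, 4, 1 and 4 genes of the lists were higher and 1, 0, 1, 0 and 0 lower, beside 12.5% and 9.59% of all genes. The share of rises was 13.8% in the genome expression list, near that background, and 2.27% among the assembly factors, below it.

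The RefSeq promoter table for GRCm38.p6 held 64 of the 78 nuclear members (250 bases before to 50 bases after each start). It was searched on both strands for 3 short motifs of factors known to bind respiratory gene promoters. The NRF1 letters GCGCATGC occurred in 15.6% of member promoters and in 3.05% of the promoters of all 27025 genes, the ETS letters of GABP, CCGGAAG, in 25.0% and 9.93%, and the YY1 letters AAGATGG in 17.2% and 7.28%. Together 48.4% of members and 18.6% of all genes held at least one of them. A match is a description of these letters and not a bound site. In YAP5SA 8 of the 10 members with the NRF1 letters were called higher and 0 lower, as were 13 and 2 of 16 with the ETS letters and 7 and 1 of 11 with the YY1 letters, beside the 53 and 9 of all 78. These 78 include the 14 members that could not be searched, and over all genes 36.3% were higher and 34.9% lower. Whether members with and without the letters differ was not tested. Windows around the NRF1 letters, which are in capitals, are shown for 6 of the 10 to let the surrounding bases be compared.
Ndufa11 (chr17:56717691-56717720, plus strand): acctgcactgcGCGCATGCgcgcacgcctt
Ndufa8 (chr2:36049328-36049357, minus strand): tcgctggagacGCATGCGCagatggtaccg
Sdhb (chr4:140961206-140961235, plus strand): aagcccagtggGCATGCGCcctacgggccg
Cox6a1 (chr5:115349102-115349131, minus strand): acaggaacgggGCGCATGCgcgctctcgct
Atp5g2 (chr15:102671071-102671100, minus strand): tggctccggccGCGCATGCgcagagccttc
Atp5k (chr5:108434431-108434460, minus strand): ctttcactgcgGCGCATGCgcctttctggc

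Some members with large changes in YAP5SA lacked these letters in the 120 bases before the start. The 120 bases before the start are shown for 3 members with large rises and 3 with large falls that the table holds, with the ETS letters of Ndufb7, the only match in these stretches, in capitals. Ndufb6 also holds the ETS letters, in the searched sequence outside the bases shown. The first 3 rose and the last 3 fell.
Cox5a (chr9:57521112-57521231, plus strand): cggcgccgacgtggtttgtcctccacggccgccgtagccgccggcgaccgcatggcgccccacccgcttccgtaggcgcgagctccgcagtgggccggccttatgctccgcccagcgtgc
Cox7a2l (chr17:83514334-83514453, minus strand): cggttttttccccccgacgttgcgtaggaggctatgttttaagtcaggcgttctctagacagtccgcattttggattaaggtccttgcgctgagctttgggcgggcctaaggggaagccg
Ndufb6 (chr4:40279422-40279541, minus strand): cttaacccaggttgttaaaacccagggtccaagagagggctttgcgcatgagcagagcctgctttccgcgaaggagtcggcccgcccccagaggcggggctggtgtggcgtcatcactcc
Ndufa5 (chr6:24527691-24527810, minus strand): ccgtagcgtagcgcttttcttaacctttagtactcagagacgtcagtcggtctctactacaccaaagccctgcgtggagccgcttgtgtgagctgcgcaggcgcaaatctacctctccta
Ndufb7 (chr8:83566638-83566757, plus strand): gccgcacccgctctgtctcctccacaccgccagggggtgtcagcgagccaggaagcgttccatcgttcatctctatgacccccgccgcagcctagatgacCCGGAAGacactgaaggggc
Ndufc2 (chr7:97399883-97400002, plus strand): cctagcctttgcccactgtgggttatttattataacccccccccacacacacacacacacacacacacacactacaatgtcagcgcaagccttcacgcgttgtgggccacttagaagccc

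Of the nuclear members 5, Ndufa2, Ndufc1, Ndufs1, Ndufs5 and Cox6c, were called in none of the 9 comparisons, and Ndufa1, Ndufa3, Atp5j2, Atp5l and Atp5s each in 1.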

How the data were processed

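RNA-Seq of 24 NIH 3T3 libraries was analysed. The files deposited by the authors hold unnormalized counts per Ensembl gene. By their methods stranded 75-base paired-end libraries of polyadenylated RNA were processed with bcbio-nextgen, aligned to mm10 (Ensembl release 97) with Hisat2, and also quantified with Salmon and summed to genes with tximport. Which of these routes made the deposited whole-number counts, and with what strand setting, is not given in the sources used here, so overlapping genes and near-identical copies may share reads. Symbols came from GENCODE M21 (37693 of 39017 identifiers matched).

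The quasi-likelihood test of edgeR 4.0.16 (R 4.3.3) was fitted once to the 24 libraries, scaled by TMM, for 14361 genes averaging 5 or more counts. A gene was called when its p, adjusted by Benjamini-Hochberg over every gene tested, was under 0.05. CPM values are TMM-normalised, except the sums of the marker lists, which are scaled to library totals alone. SE is the log2 fold change over the square root of F. P-values measure the spread between separately transduced triplicates. On simulated counts for TAZ4SA against EV with 200 changed genes among 14361, 136 were recovered at a log2 change of 1 and 27 at 0.5. There was 1 false call each, so small changes can be missed. In the data 4465 genes were called higher and 3788 lower in this comparison, far more than were simulated. The recovery therefore does not measure how many changes among the members were missed. DESeq2 1.42.0 and other scalings, filters and sample sets were alternatives; pandas 2.3.3 and matplotlib 3.10.9 were used.

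Members and lists were chosen with earlier results of these data known. Named genes were all mitochondrial members, the isoform sets, Sdha to Sdhd, core subunits, and per comparison the 4 largest rises and falls among called nuclear members averaging 50 or more counts with no overlap between groups, with up to 2 rises and 2 falls per list. Other members named as overlaps or exceptions were chosen after their values were seen. The label of YAP-TFE3 replicate 3 conflicts with its description, so its title decided the number. Of the members that the naming rule picks, 1 is not reported here, although it stays in the counts and medians.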

Additional observations from a re-analysis of the deposited data

Results flagged for a closer look

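Genes left out of the 91 members as pseudogene copies were also read where they had a mean of at least 5 counts. In 4 cases each library of a group lay above every control library, at levels of few counts. Ndufb4c averaged 3.60 CPM in YAP5SA against 1.46 in EV, and Atp5l2-ps averaged 1.46 CPM in YAP5SA against 1.13 in EV, where the highest EV library (1.33) all but met the lowest of YAP5SA. Ndufs6b averaged 1.21 CPM in EVsub against 0.661 in EV, and Cox6c2 averaged 0.378 CPM in CAMTA1 against 0.194 in EVsub. The test for an outlying sample needs groups of 4 or more and was not applied to these groups of 3.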

How the results depend on the processing

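No called member was called in the opposite direction under any of the alternatives (DESeq2, other scalings and filters, a replicate block, a fit of the 2 groups alone, and each library left out). A change of sign that also lost the call was not counted. The count of members called in either direction moved by over 1.5 times as follows. In the fit of the 2 groups alone it was 18 nuclear members for TAZ4SA against EV (41 in the full fit), 16 for TAZ-CAMTA1 against EV (5), 2 for YAP-TFE3 against EV (1), 14 for EVsub against EV (22) and 30 for TAZ-CAMTA1 against TAZ4SA (50), and 5 mitochondrial genes for TFE3 against EV (1). DESeq2 called 8 nuclear members for TAZ-CAMTA1 against EV and 1 for CAMTA1 against EVsub (0), and 1 mitochondrial gene for YAP-TFE3 against EV (0), 5 for TFE3 and 2 for CAMTA1 (0). With library totals alone, a setting chosen after seeing the data, 10 nuclear members were called for TAZ-CAMTA1 and 2 for YAP-TFE3 against EV. Without a low count filter 1 mitochondrial gene was called for TAZ-CAMTA1 against EV, 2 for TFE3 and 1 for CAMTA1, and 2 for TFE3 with at least 10 counts in every library or with DESeq2 size factors. The cause of these differences was not tested.

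With each library left out in turn, the nuclear counts ranged from 31 to 49 for TAZ4SA, 2 to 5 for TAZ-CAMTA1, 55 to 59 for YAP5SA, 0 to 1 for YAP-TFE3, 11 to 23 for EVsub against EV and 0 to 1 for CAMTA1 against EVsub (1 without CAMTA1 replicate 3). The calls over all genes moved too, and for EVsub against EV they ranged from 1086 to 2109 higher and 851 to 1559 lower. The mitochondrial counts ranged from 8 to 10 for TAZ4SA, 11 to 13 for YAP5SA, 0 to 1 for TAZ-CAMTA1 (1 without EV replicate 2), 0 to 2 for TFE3 (2 without TFE3 replicate 1), 4 to 9 for EVsub and 0 to 1 for CAMTA1 (1 without EVsub replicate 1).

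The replicate numbers were not used as pairs in the main fit. In no comparison did every pair of same-numbered libraries deviate together with a correlation over 0.1 (range -0.20 to 0.51). The values in CAMTA1 against EVsub were 0.32, 0.01 and 0.51. Such correlations from groups of 3 libraries cannot exclude a pairing. With the replicate number as a block, 2 nuclear members were called for YAP-TFE3 against EV in place of 1, and 62 for YAP5SA and 40 for TAZ4SA against EV. Small changes can be missed with 3 libraries a group. The simulation changed far fewer genes than were called here, so it does not give the share of members missed.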
